A study of Mus musculus with 6 samples.

Results

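The 10 genes described here mark eosinophils, the granulocytes that carry toxic basic proteins in their granules, and were measured in haematopoietic cells taken from the bone marrow of mice. They were chosen by name, as the 10 rows of the deposited table of 21684 genes whose symbol was Epx, Prg2, Prg3, Ear1, Ear2, Ear6, Ear10, Il5ra, Siglecf or Ccr3, and all 10 were found. Expression had been measured by RNA sequencing in 3 libraries of cells overexpressing the RUNX1-RARA fusion and 3 libraries of cells transduced with an empty vector. RUNX1 is a transcription factor that blood formation needs, and RARA is the retinoic acid receptor rearranged in acute promyelocytic leukaemia. The labels give no strain, age, sex, vector type or time after transduction, and do not say whether the cells were sorted or whether the 3 libraries of a group came from separate mice or cultures. All levels are deposited FPKM, which scale fragments to gene length and to the mapped fragments of a library.

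Eosinophils arise from myeloid progenitors under interleukin-5, which binds a receptor made of a specific alpha chain, encoded by Il5ra, and a beta chain shared with related cytokine receptors. Their granules hold eosinophil peroxidase (Epx), major basic proteins (Prg2 and Prg3) and eosinophil-associated ribonucleases (the Ear genes, a rodent expansion of the ribonuclease A family). The lectin Siglec-F (Siglecf) and the eotaxin receptor CCR3 (Ccr3) sit on the surface of mature mouse eosinophils, and granule genes are transcribed mainly in developing cells of the marrow.

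The Ear genes are close copies, and their sequences bear on how far each value can be trusted. Epx lies on chromosome 11 (ENSMUSG00000052234, 87864000 to 87875536, minus strand, mm10 with GENCODE M21), Prg2 (ENSMUSG00000027073, 84980461 to 84983632) and Prg3 (ENSMUSG00000027072, 84988215 to 84993886) lie 4.58 kb apart on the plus strand of chromosome 2, and the 4 Ear genes lie on chromosome 14. Ear1 (ENSMUSG00000072601, 43818765 to 43875517) and Ear10 (ENSMUSG00000090166, 43922720 to 43923559) are on the minus strand, and Ear2 (ENSMUSG00000072596, 44102654 to 44103534) and Ear6 (ENSMUSG00000062148, 51853699 to 51854643) on the plus strand. Il5ra is on chromosome 6 (ENSMUSG00000005364, 106710357 to 106749037, minus strand), Siglecf on chromosome 7 (ENSMUSG00000039013, 43351341 to 43359531, plus strand) and Ccr3 on chromosome 9 (ENSMUSG00000035448, 124021972 to 124031689, plus strand). The first 150 bases of each Ear coding sequence, from the start codon, are shown from GENCODE M21 transcripts to let the copies be compared, with the bases that differ from Ear2 at the same place in capitals.
Ear1: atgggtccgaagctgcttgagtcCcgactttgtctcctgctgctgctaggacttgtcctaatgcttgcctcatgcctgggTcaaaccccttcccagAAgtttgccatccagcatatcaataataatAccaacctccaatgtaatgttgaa
Ear2: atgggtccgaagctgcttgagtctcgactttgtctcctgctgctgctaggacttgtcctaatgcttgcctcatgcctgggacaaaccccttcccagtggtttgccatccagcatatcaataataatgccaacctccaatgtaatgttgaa
Ear6: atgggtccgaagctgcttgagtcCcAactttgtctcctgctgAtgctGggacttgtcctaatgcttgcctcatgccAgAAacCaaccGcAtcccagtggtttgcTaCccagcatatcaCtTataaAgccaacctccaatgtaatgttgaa
Ear10: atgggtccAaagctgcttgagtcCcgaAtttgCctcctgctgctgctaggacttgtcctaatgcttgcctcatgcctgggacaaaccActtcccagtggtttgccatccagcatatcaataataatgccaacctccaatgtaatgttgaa
Over these 150 bases Ear1 and Ear10 each differed from Ear2 at 5 places and Ear6 at 15. Over whole coding sequences of 468 to 471 bases, identity was 97.0% between Ear2 and Ear10, 95.1% between Ear1 and Ear2, and 87.4% to 87.7% between Ear6 and each of the others. Prg2 and Prg3, by contrast, shared 62.3% of their aligned coding bases and Epx shared 70.0% with the myeloperoxidase gene Mpo.

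The share of a transcript that another gene also carries shows which values can hold reads from a copy. Of 50-base windows in annotated transcripts, 57.4% of those of Ear1, 41.5% of those of Ear2 and 39.9% of those of Ear10 were found unaltered in transcripts of another gene, most often the pseudogene Ear-ps9 for Ear1 (41.4%), Ear10 for Ear2 (26.0%) and Ear2 for Ear10 (27.7%). With 100-base windows these shares were 23.9%, 13.9% and 24.2%. Ear6 stood apart from its relatives, with 0.954% of 50-base windows and 0% of 100-base windows shared. Epx, Prg2, Prg3 and Ccr3 shared no window of either length, Il5ra shared 1.01% and Siglecf 0.206% of 50-base windows. How the authors treated reads that fit more than 1 gene is not stated in the labels, so the split of reads among Ear1, Ear2 and Ear10 is uncertain, while Ear6 is less so. Ear1 also overlaps Ear-ps9 and Ear-ps12 on its own strand, and Ear2 overlaps Gm49101 on the opposite strand.

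**Figure D1:**
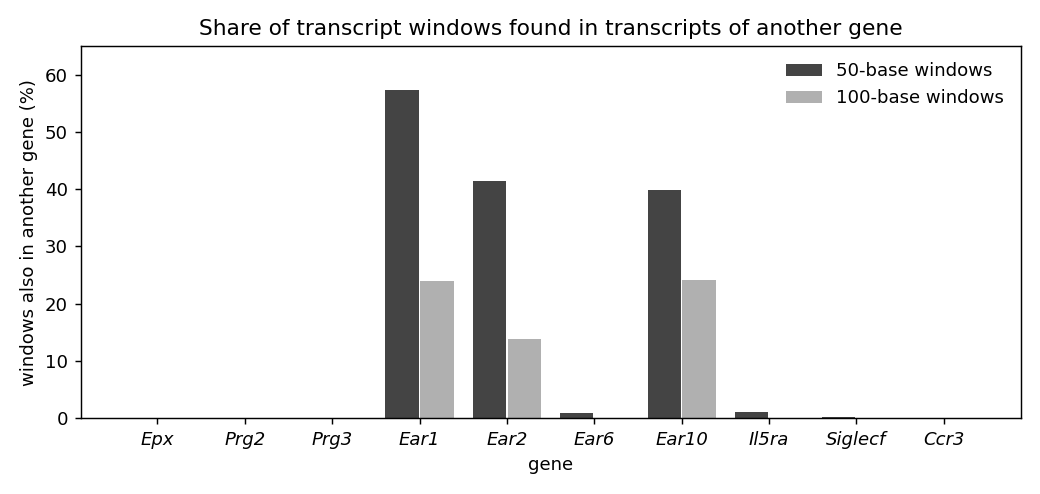
The vertical axis gives the percent of a gene's distinct transcript windows, 50 bases (dark) or 100 bases (light) long, that also occur in GENCODE M21 transcripts of another gene on either strand, for each of the 10 eosinophil genes. Ear1, Ear2 and Ear10 reach 57.4%, 41.5% and 39.9% at 50 bases, and all other genes stay at 1.01% or less.

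The region from 250 bases before to 50 after the transcription start was read from RefSeq (GRCm38.p6) and matched for 9 of the 10 genes, not for Prg2. For Ear1 the RefSeq start lies inside the GENCODE span, far from its upstream end at 43875517, so the 2 annotations differ on its outermost start. Of these, 6 are shown because they contrast close copies at unlike levels and genes that moved in opposite directions. Capitals mark matches on either strand to 6 motifs. Factors of the Gata1 family bind AGATAA as well as the variant TGATAA, C/EBP factors bind TTGCNNAA, and PU.1 and other ETS factors bind GAGGAA. RUNX factors bind TGTGGT, while AGGTCA is the core site of retinoic acid receptors.
Ear1 (chr14:43819590-43819889, minus strand): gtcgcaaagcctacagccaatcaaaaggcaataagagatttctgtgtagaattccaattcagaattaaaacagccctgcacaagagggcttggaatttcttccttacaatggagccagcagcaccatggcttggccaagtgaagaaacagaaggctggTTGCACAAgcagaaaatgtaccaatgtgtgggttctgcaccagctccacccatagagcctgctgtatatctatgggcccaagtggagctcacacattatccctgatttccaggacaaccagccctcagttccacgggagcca
Ear2 (chr14:44102404-44102703, plus strand): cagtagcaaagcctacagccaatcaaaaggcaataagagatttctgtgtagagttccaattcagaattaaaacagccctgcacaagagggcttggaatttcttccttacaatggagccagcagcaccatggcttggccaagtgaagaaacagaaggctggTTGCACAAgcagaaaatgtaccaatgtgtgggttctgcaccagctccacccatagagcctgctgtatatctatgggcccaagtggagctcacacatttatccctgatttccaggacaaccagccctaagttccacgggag
Ear6 (chr14:51853518-51853817, plus strand): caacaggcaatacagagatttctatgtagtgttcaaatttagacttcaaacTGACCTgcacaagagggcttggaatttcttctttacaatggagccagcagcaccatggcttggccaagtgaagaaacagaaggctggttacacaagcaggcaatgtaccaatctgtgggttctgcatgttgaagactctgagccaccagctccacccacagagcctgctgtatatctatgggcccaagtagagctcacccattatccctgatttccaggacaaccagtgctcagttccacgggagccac
Epx (chr11:87875487-87875786, minus strand): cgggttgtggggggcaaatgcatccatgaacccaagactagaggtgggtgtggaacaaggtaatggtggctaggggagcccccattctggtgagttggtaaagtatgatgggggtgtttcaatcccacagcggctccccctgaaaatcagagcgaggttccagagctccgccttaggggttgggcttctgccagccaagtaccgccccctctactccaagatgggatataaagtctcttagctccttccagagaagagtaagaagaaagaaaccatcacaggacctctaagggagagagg
Il5ra (chr6:106748988-106749287, minus strand): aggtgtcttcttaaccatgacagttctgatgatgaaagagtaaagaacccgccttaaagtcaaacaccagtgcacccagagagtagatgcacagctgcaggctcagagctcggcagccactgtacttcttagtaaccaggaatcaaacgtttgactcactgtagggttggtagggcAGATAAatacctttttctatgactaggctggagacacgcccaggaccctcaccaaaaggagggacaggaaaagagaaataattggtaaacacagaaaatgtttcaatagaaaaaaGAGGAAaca
Siglecf (chr7:43351091-43351390, plus strand): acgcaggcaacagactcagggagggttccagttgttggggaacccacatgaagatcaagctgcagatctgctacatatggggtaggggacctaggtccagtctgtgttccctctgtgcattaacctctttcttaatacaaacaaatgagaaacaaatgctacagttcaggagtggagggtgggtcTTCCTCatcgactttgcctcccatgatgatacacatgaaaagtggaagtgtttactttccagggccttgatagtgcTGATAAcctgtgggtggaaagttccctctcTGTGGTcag
The Ear1 and Ear2 stretches were 97.0% identical and both held TTGCACAA, as did Ear10, starting at positions -92, -90 and -94 from the start site; Ear6, 80.7% identical to Ear1, had no match to TTGCNNAA. That motif was present in 3 of the 9 stretches, against 10.8% of 32851 promoters of the same length. These 3 are close copies, Ear10 being 91.4% identical to Ear1 and 89.5% to Ear2, so their matches are not independent. Il5ra and Ccr3 held AGATAA (11.2% of all promoters), Prg3 and Siglecf TGATAA (9.05%) and TGTGGT (16.8%), Il5ra, Siglecf and Ccr3 GAGGAA (28.3%), and Prg3 and Ear6 AGGTCA (16.3%). No match overlapped a match to another of these motifs in the 9 stretches, and the Epx stretch held none. A match is a description of the letters and not a bound site.

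Granule genes were much lower in RUNX1-RARA cells, whereas Il5ra and Siglecf were higher. Of the 10 genes, 8 reached the 1 FPKM in at least 3 of the 6 libraries that was required for testing; 6 of them, all granule genes, fell and 2, both surface receptors, rose, each with a limma adjusted p under 0.05, while Ear10 and Ccr3 were too low to be tested. Over all 10901 tested genes the same test called 31.7% lower and 46% higher in RUNX1-RARA cells, 77.7% in all, so that a call by itself was common. Of the 8 tested genes, 5 reached 1 FPKM only in empty vector libraries and Il5ra only in RUNX1-RARA libraries, so these 6 could hardly pass the filter without differing. The libraries of the groups did not overlap for any of the 8 tested genes, against no overlap for 79.1% of all tested genes. The median log2 fold change, on the log2(FPKM + 1) scale, was -2.41 over the 8 tested genes and 0.11 over all tested genes, a description that the filter also shaped. A log2 fold change of -1 or lower with a call was found for 9.72% of tested genes and of 1 or higher for 6.12%, and all 8 members were past one or the other. In bulk RNA, fewer cells of a type and less RNA per cell cannot be told apart.

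**Figure D2:**
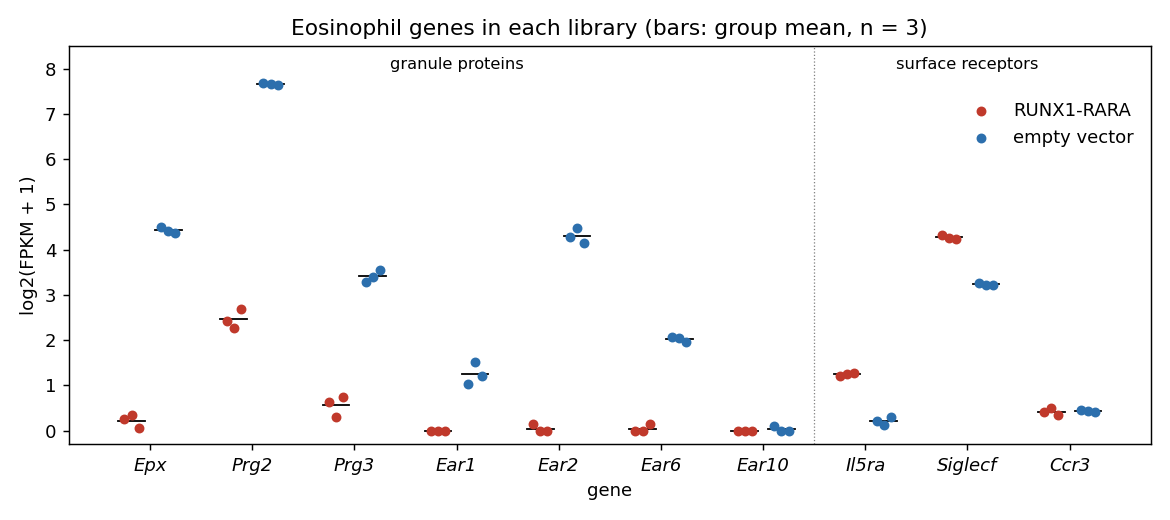
Each point is 1 library, on the log2(FPKM + 1) scale, for 10 eosinophil genes in RUNX1-RARA (red) and empty vector (blue) cells, with bars for the means of 3 libraries. The red points lie below the blue ones for Epx, Prg2, Prg3, Ear1, Ear2 and Ear6, above them for Il5ra and Siglecf, and overlap them for Ear10 and Ccr3.

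Prg2 encodes the major basic protein, the core of the eosinophil granule, and was the most abundant of the 10 genes in empty vector cells. It stood at 4.38, 3.82 and 5.46 FPKM in RUNX1-RARA replicates 1, 2 and 3, and at 203, 201 and 199.5 FPKM in empty vector replicates 1, 2 and 3. The groups were far apart, and the vector libraries lay within a coefficient of variation of 0.786%. The mean was 4.55 ± 0.834 FPKM in RUNX1-RARA cells and 201.0 ± 1.58 FPKM in vector cells (SD, n = 3 each), 44.2-fold lower with the fusion, and its log2 fold change was -5.20 (SE 0.0915, adjusted p = 1.00e-11 by limma). It ranked as the 33rd lowest log2 fold change of the 10901 tested genes. Its level in RUNX1-RARA libraries was still well above single reads, at an estimated 88.4 to 186 reads per library.

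Prg3, the gene of the second major basic protein, lies next to Prg2 and was lower as well. RUNX1-RARA libraries held 0.553, 0.227 and 0.674 FPKM and vector libraries 8.74, 9.57 and 10.7 FPKM, without overlap. The means of 0.485 ± 0.231 FPKM with the fusion and 9.66 ± 0.963 FPKM with the vector (SD, n = 3 each) gave a 19.9-fold lower level (log2 fold change -2.85, SE 0.112, adjusted p = 4.30e-09 by limma). Prg2 exceeded Prg3 7.93-fold, 16.8-fold and 8.10-fold in the 3 RUNX1-RARA libraries and 23.2-fold, 21.0-fold and 18.7-fold in the 3 vector libraries, and these ratios of FPKM did not overlap. With 14.0, 5.95 and 26.1 estimated reads for Prg3 in the RUNX1-RARA libraries, the ratios there are coarse.

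Epx encodes eosinophil peroxidase, which forms hypohalous acids from hydrogen peroxide and halides. It was present at 0.192, 0.263 and 0.036 FPKM in RUNX1-RARA libraries, against 21.6, 20.2 and 19.6 FPKM in vector libraries. Every vector library lay far above every RUNX1-RARA library, the lowest of which (replicate 3) rested on an estimated 4.02 reads. The means were 0.164 ± 0.116 and 20.5 ± 1.03 FPKM in RUNX1-RARA and vector cells (SD, n = 3 each), 125-fold lower with the fusion (log2 fold change -4.21, SE 0.0804, adjusted p = 1.69e-11 by limma). Its relative Mpo, the peroxidase of neutrophil and monocyte granules, whose gene lies 59.6 kb away, stood at 707 ± 61.3 FPKM in RUNX1-RARA cells and 940 ± 19.1 FPKM in vector cells, which is 1.33-fold lower (log2 fold change -0.41, SE 0.0822, adjusted p = 9.43e-04 by limma). Mpo overlaps Gm11505 on the opposite strand. Lpo, the lactoperoxidase gene between them, was below the filter at 0.387 ± 0.051 FPKM in RUNX1-RARA cells and 0.564 ± 0.0117 FPKM in vector cells.

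By listed FPKM, Ear2 was the highest of the 4 Ear genes in vector cells, though the split of reads among copies is uncertain. It was listed at 0.104, 0 and 0 FPKM in RUNX1-RARA libraries and at 18.5, 21.1 and 16.7 FPKM in vector libraries, where it made up 80.0% to 81.0% of the summed FPKM of the 4 Ear genes. The single value above 0 with the fusion (replicate 1) corresponded to an estimated 2.00 reads, and without that library the RUNX1-RARA mean is 0, so no fold is given. Its fitted log2 change, -4.25 (SE 0.0859, adjusted p = 2.51e-11 by limma), depends on the added 1 FPKM for the same reason. Ear6, whose transcript is almost wholly its own, was listed at 0, 0 and 0.104 FPKM with the fusion, against 3.19, 3.11 and 2.87 FPKM with the vector (log2 fold change -1.97, SE 0.0675, adjusted p = 1.45e-09 by limma). The 1 RUNX1-RARA library with any Ear6 signal (replicate 3) held an estimated 4 reads, and without it the mean there is 0.

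Ear1 and Ear10 completed the family at lower levels. Ear1 was listed at 0 FPKM in all 3 RUNX1-RARA libraries, against 1.05, 1.84 and 1.32 FPKM in vector libraries (mean 1.41 ± 0.402, SD, n = 3), and the size of its fitted log2 change, -1.25 (SE 0.104, adjusted p = 1.48e-06 by limma), is set by the added 1 FPKM. Ear10 was listed at 0 FPKM in every library but empty vector replicate 1, where 0.082 FPKM corresponded to an estimated 4.97 reads. Without the filter on low values its log2 fold change was -0.04 (SE 0.0314, adjusted p = 0.345 by limma), and a difference was not detectable at this depth. Actb, Gapdh, Tbp and Hprt, which all cells use, were at 4.83 FPKM or more in each library. Summed over the 4 Ear genes, the level was 0.0693 ± 0.06 FPKM in RUNX1-RARA cells and 23.3 ± 2.63 FPKM in vector cells (SD, n = 3 each). Reads that fit more than 1 gene may be missing from this sum or counted more than once, since their treatment is not stated.

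Il5ra, the interleukin-5 receptor alpha chain that marks eosinophil-committed progenitors, went the other way. It stood at 1.31, 1.40 and 1.40 FPKM in RUNX1-RARA libraries and 0.165, 0.096 and 0.227 FPKM in vector libraries. The fusion libraries lay close together and all above the vector libraries, whose coefficient of variation was 40.3%. The means of 1.37 ± 0.0515 and 0.163 ± 0.0655 FPKM in RUNX1-RARA and vector cells (SD, n = 3 each) differed 8.42-fold. The fitted log2 change, 1.03 (SE 0.0649, adjusted p = 1.72e-07 by limma), is smaller than that ratio because 1 FPKM was added to low values. Between 125 and 204 estimated reads supported the gene in RUNX1-RARA libraries and between 14.0 and 52.7 in vector libraries.

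Siglecf encodes the sialic acid-binding lectin Siglec-F, which mouse alveolar macrophages also carry. Its values were 19.1, 18.2 and 17.8 FPKM with the fusion and 8.57, 8.34 and 8.35 FPKM with the vector, again with no overlap. The means were 18.4 ± 0.677 FPKM in RUNX1-RARA cells and 8.42 ± 0.132 FPKM in vector cells (SD, n = 3 each), a 2.18-fold difference (log2 fold change 1.04, SE 0.0531, adjusted p = 3.34e-08 by limma). It alone of the 10 genes was above 8 FPKM in all 6 libraries. Ccr3, the receptor for eotaxins, was low throughout, at 0.321, 0.417 and 0.271 FPKM in RUNX1-RARA libraries and 0.378, 0.359 and 0.331 FPKM in vector libraries, and the groups overlapped. Without the filter its log2 fold change was -0.02 (SE 0.0417, adjusted p = 0.675 by limma), on an estimated 28.1 to 110 reads per library.

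**Figure D3:**
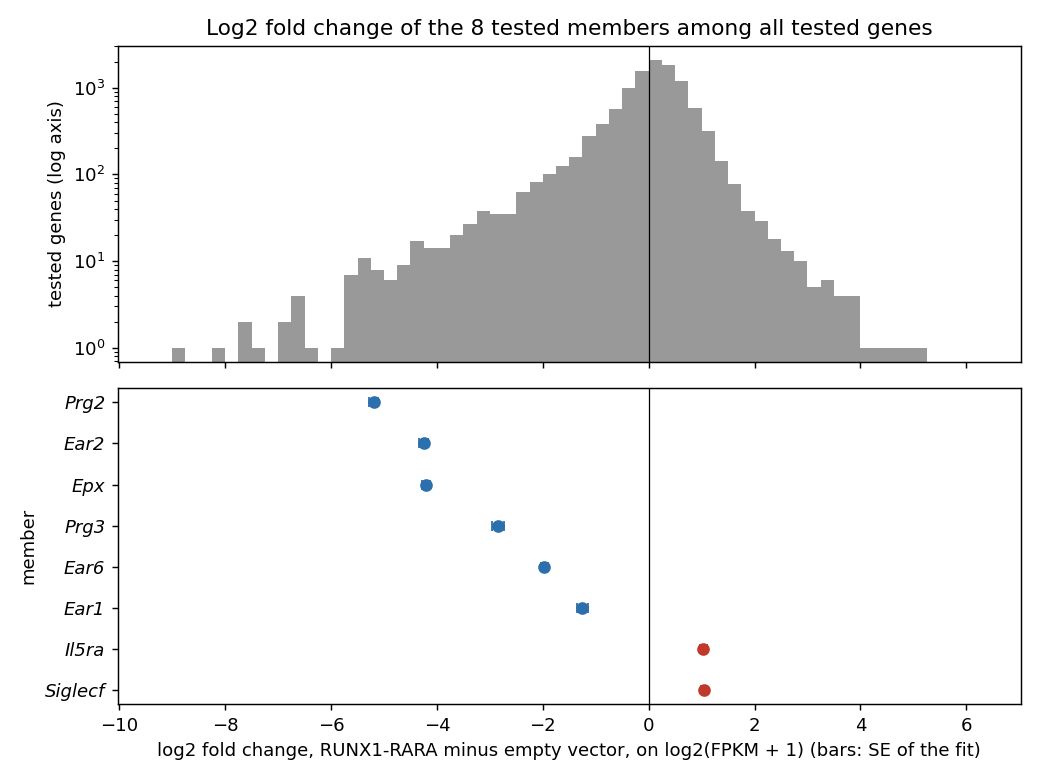
The upper panel counts all 10901 tested genes by log2 fold change (RUNX1-RARA minus empty vector on log2(FPKM + 1)), with a logarithmic vertical axis, and the lower panel gives the 8 tested eosinophil genes with the SE of the fit. The 6 granule genes run from -5.20 (Prg2) to -1.25 (Ear1), and Il5ra and Siglecf lie at 1.03 and 1.04.

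The order of the genes by level changed with these shifts, FPKM being scaled to gene length. In RUNX1-RARA cells Siglecf came first, followed by Prg2, Il5ra, Prg3, Ccr3 and Epx, with Ear2 and Ear6 equal, and Ear1 and Ear10 listed at 0. Adjacent genes from Prg3 down could not all be told apart, since the ranges of Prg3 and Ccr3 overlapped, as did those of Epx, Ear2 and Ear6. In vector cells the order was Prg2, Epx, Ear2, Prg3, Siglecf, Ear6, Ear1, Ccr3, Il5ra and Ear10, in which only Epx and Ear2 had overlapping ranges among neighbours. The 7 granule genes summed to 5.27 ± 0.984 FPKM in RUNX1-RARA cells and 254 ± 3.28 FPKM in vector cells, and the 3 surface receptors to 20.1 ± 0.646 and 8.94 ± 0.163 FPKM in RUNX1-RARA and vector cells (SD, n = 3 each). Prg2 alone was 17.9% ± 2.92 of the summed FPKM of the 10 genes in RUNX1-RARA cells and 76.3% ± 0.608 in vector cells. All 10 together took 60.7 ± 2.63 ppm of the FPKM sum with the fusion and 624 ± 16.4 ppm with the vector (SD, n = 3 each).

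Markers of other lineages moved in the same libraries, where 46% of all tested genes were called higher and 31.7% lower with the fusion. Of 11 mature neutrophil markers 11 fell, and their summed level ran from 2511 to 3077 FPKM in RUNX1-RARA libraries and from 57344 to 64357 FPKM in vector libraries. Of 10 monocyte and macrophage markers 9 were tested and 8 fell (589 to 621 FPKM with the fusion, 5550 to 6054 FPKM with the vector). Of 13 basophil and mast cell markers 12 were tested, 6 rose and 4 fell (2855 to 2993 FPKM with the fusion, 1850 to 1965 FPKM with the vector). The mast cell protease gene Cpa3 alone averaged 1864 ± 25.4 FPKM with the fusion and 554 ± 36.9 FPKM with the vector (SD, n = 3 each), and without it the sum ran from 982 to 1111 FPKM with the fusion and from 1256 to 1418 FPKM with the vector. The mast cell protease genes Cma1 and Mcpt4 rose 7.60-fold and 5.29-fold. Fcer1a and Ms4a2, subunits of the high-affinity IgE receptor, fell 98.0-fold and 4.27-fold, and the basophil genes Prss34 and Cd200r3 fell 39.3-fold and 4.77-fold. The basophil protease gene Mcpt8 was not called, at 813 ± 65.2 FPKM with the fusion and 762 ± 59.4 FPKM with the vector (log2 fold change 0.09, adjusted p = 0.354 by limma). Kit, Hdc and Gata2 were called higher, with log2 fold changes of 0.47, 0.38 and 0.18, and Tpsb2 was not called. Summed T and NK cell markers ran from 3.83 to 4.29 FPKM with the fusion and from 0.986 to 1.44 FPKM with the vector, with 1 tested and higher gene (Lck). Erythroid markers ran from 28.5 to 33.1 FPKM with the fusion and from 2.46 to 3.63 FPKM with the vector, again with 1 tested and higher gene (Hbb-bt). Stromal and endothelial markers ran from 17.1 to 20.2 FPKM with the fusion and from 1.38 to 1.48 FPKM with the vector, where Pdgfrb was the tested and higher gene. Summed B cell markers ran from 0.891 to 1.16 FPKM with the fusion and from 3.47 to 3.82 FPKM with the vector, with 1 tested and lower gene (Cd79b), and megakaryocyte markers from 57.9 to 63.1 FPKM with the fusion and from 85.9 to 93.0 FPKM with the vector, with 1 higher and 3 lower of 4 tested. The defining T cell genes were low and untested: Cd3g averaged 0.968 ± 0.287 FPKM with the fusion and 0.032 ± 0.0554 FPKM with the vector, Cd3d 0.045 ± 0.0392 FPKM with the fusion and 0.440 ± 0.0546 FPKM with the vector, and Cd3e 0.0127 FPKM or less in each group. The untested stromal gene Col1a1 was listed at 0 in the RUNX1-RARA libraries and averaged 0.626 ± 0.0736 FPKM with the vector, and the endothelial gene Kdr averaged 0.0407 ± 0.00231 FPKM with the fusion and 0.182 ± 0.0223 FPKM with the vector. Cdh5 averaged 0.0283 FPKM or less in each group, and Pdgfra, Cxcl12 and Ncr1 were listed at 0 throughout. The part of these cell types in the eosinophil gene results was not tested. Ptprc, the pan-leukocyte antigen CD45, was at 70.6 FPKM or more in all 6 libraries. The first principal component (97.1% of variance) split the libraries by group, and the estimated depth was 26.7 to 40.7 M reads in RUNX1-RARA and 33.2 to 89.3 M reads in vector libraries. The mouse genes Runx1 (21.9 FPKM with the fusion, 17.7 FPKM with the vector) and Rara (15.4 FPKM with the fusion, 12.6 FPKM with the vector) need not count the fusion transcript, whose species the labels do not give.

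Transcription factors and other regulators linked to the eosinophil lineage differed between the groups in both directions. The list includes a GATA cofactor, ID inhibitors and a Tribbles pseudokinase, so not every gene on it is a transcription factor or favours eosinophils. All 13 listed genes were tested and called, 9 lower and 4 higher (Zfpm1 among them) in RUNX1-RARA cells, against 77.7% called of all tested genes. Their median log2 fold change was -0.75. Gata1, which directs eosinophil commitment from myeloid progenitors, stood at 1.97, 1.93 and 1.85 FPKM with the fusion and 3.95, 3.97 and 3.74 FPKM with the vector, 2.03-fold lower by the means (log2 fold change -0.74, SE 0.0575, adjusted p = 8.45e-07 by limma). Cebpe, needed for the granules of eosinophils and neutrophils alike, was at 27.1 ± 3.63 and 56.8 ± 1.67 FPKM in RUNX1-RARA and vector cells (SD, n = 3 each; log2 fold change -1.05, SE 0.0855, adjusted p = 1.26e-06 by limma), 2.10-fold lower. These folds are small beside 125-fold for Epx and 44.2-fold for Prg2.

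Other genes of the list had larger changes. Cebpb, a C/EBP factor of myeloid cells that overlaps Tmem189 on the opposite strand, was at 4.85 ± 1.49 FPKM in RUNX1-RARA and 22.7 ± 6.51 FPKM in vector cells (log2 fold change -2.02). Spi1, the gene of PU.1, was at 19.7 ± 2.57 FPKM in RUNX1-RARA and 68.8 ± 2.64 FPKM in vector cells (log2 fold change -1.76). Irf8, which favours monocytes over neutrophils, was at 1.64 ± 0.251 FPKM in RUNX1-RARA and 5.68 ± 0.0938 FPKM in vector cells (log2 fold change -1.34). Zfpm1 encodes FOG1, a GATA cofactor whose removal is known, from work in chicken cells, to accompany eosinophil commitment; it rose to 5.67 ± 0.526 FPKM in RUNX1-RARA cells, against 1.35 ± 0.154 FPKM in vector cells (log2 fold change 1.50). Zfpm1 and Irf8 both overlap Gm20388 on their own strand. Of factors named after their values were seen, Xbp1, which eosinophils need to survive their secretory load, was at 201 ± 9.06 FPKM with the fusion and 149 ± 6.52 FPKM with the vector, and Gata2 at 53.9 ± 1.38 FPKM with the fusion and 47.4 ± 0.695 FPKM with the vector, a call lost under TMM scaling (log2 fold change 0.07, adjusted p = 0.242 by limma).

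**Figure D4:**
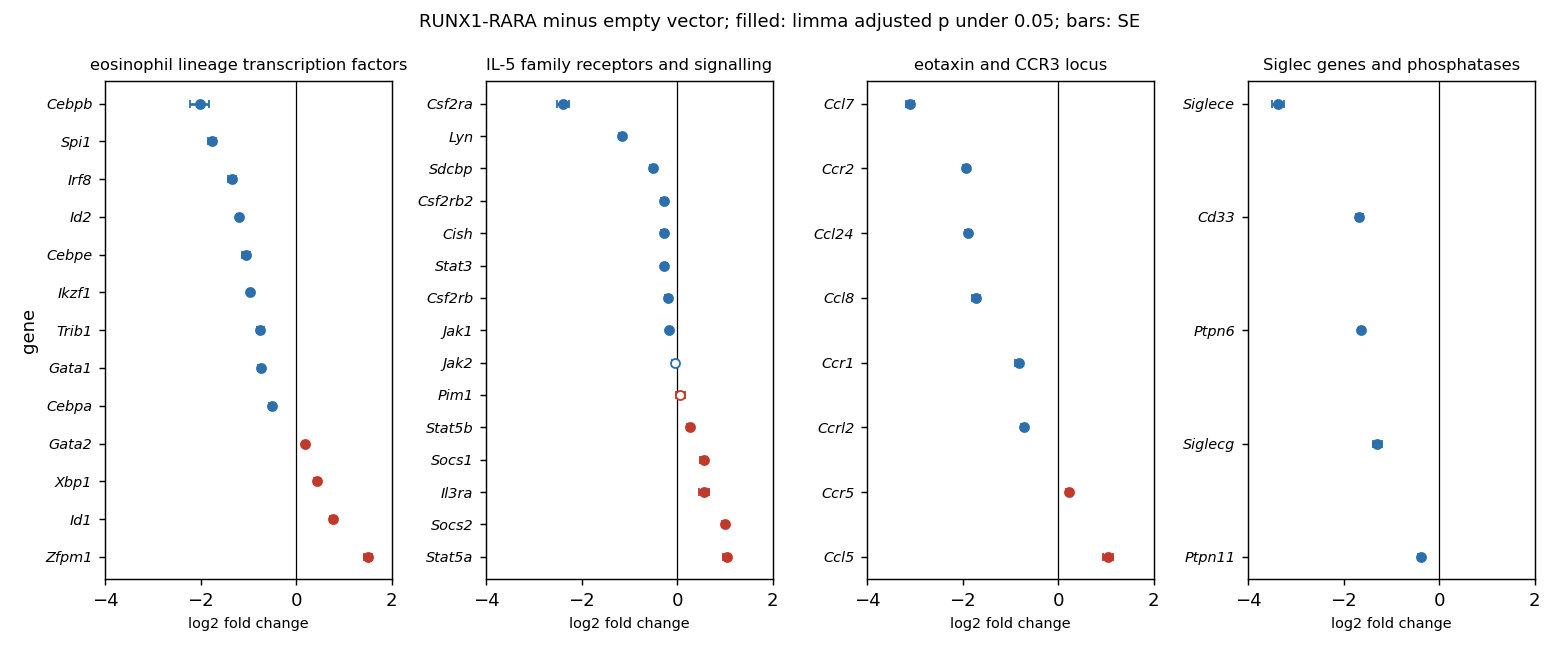
Log2 fold changes (RUNX1-RARA minus empty vector on log2(FPKM + 1), horizontal axis) of the tested genes of 4 related lists, with the SE of the fit; filled points have a limma adjusted p under 0.05. Zfpm1 (1.50) rose beside lower Gata1 (-0.74) and Cebpe (-1.05), Csf2rb lies at -0.20, and the 5 tested genes of the Siglec list (3 Siglec genes and 2 phosphatase genes) all lie below 0.

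The other chain of the interleukin-5 receptor differed little. Csf2rb, the common beta chain, stood at 139, 149 and 134 FPKM in RUNX1-RARA libraries and 163, 156 and 166 FPKM in vector libraries, groups that did not overlap. Its log2 fold change was -0.20 (SE 0.0603, adjusted p = 0.0109 by limma), a call that quantile normalization ended (-0.09, adjusted p = 0.213 by limma). Csf2rb2, a close paralogue with which it may share reads, was at 90.7 ± 4.20 and 111 ± 5.94 FPKM with the fusion and the vector. Alpha chains of related receptors moved in opposite directions. Csf2ra, for GM-CSF, was 5.81-fold lower at 7.60 ± 1.30 FPKM in RUNX1-RARA cells, against 44.2 ± 6.43 FPKM in vector cells (log2 fold change -2.40, limma adjusted p = 3.56e-08), and Il3ra, for interleukin-3, was at 6.25 ± 1.01 FPKM with the fusion and 3.90 ± 0.438 FPKM with the vector (log2 fold change 0.56, limma adjusted p = 6.60e-04).

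The list of IL-5 family receptors, their cytokines and their signalling held 18 genes. Of 15 tested, 13 were called, 5 higher and 8 lower, against 77.7% called of all tested genes. The median log2 fold change of the list was -0.16. Stat5a, a signal transducer of the beta chain, rose 2.28-fold to 10.5 ± 0.898 FPKM in RUNX1-RARA cells, against 4.59 ± 0.174 FPKM in vector cells, and Socs2, a feedback inhibitor induced by STAT5, rose 2.28-fold to 8.10 ± 0.0469 FPKM, against 3.55 ± 0.165 FPKM. The kinase gene Lyn fell 2.28-fold to 27.8 ± 0.618 FPKM, against 63.4 ± 1.10 FPKM in vector cells. Stat5a overlaps Stat3, and Lyn several predicted genes, on the opposite strand. The cytokine genes themselves were near 0, as Il5 averaged 0.0803 and 0.013 FPKM in RUNX1-RARA and vector cells, and Il3 was listed at 0 throughout.

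Eotaxin and receptor genes around Ccr3 were mostly lower. Of 12 listed genes 8 were tested, with 2 higher and 6 lower, against 46% and 31.7% of all tested genes. Ccl24, Ccl7 and Ccl8 reached 1 FPKM only in vector libraries and Ccl5 only in RUNX1-RARA libraries. These genes could hardly pass the filter without differing, so the counts are a description. Ccl24, an eotaxin that binds CCR3, fell to 0.126 ± 0.0224 FPKM in RUNX1-RARA cells, against 3.19 ± 0.163 FPKM in vector cells, 25.2-fold. Ccl7, also a CCR3 ligand, fell 24.2-fold to 0.489 ± 0.0426 FPKM, against 11.9 ± 1.51 FPKM. Ccl8 was listed at 0 FPKM in every RUNX1-RARA library, against 2.29 ± 0.399 FPKM in vector cells. The chemokine gene Ccl5 went the other way and rose 6.71-fold to 1.55 ± 0.331 FPKM, against 0.230 ± 0.0954 FPKM (log2 fold change 1.04, adjusted p = 3.63e-06 by limma). Ccr2, the monocyte chemokine receptor 70.3 kb from Ccr3, fell 3.91-fold to 31.6 ± 2.33 FPKM, against 123 ± 5.48 FPKM.

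Siglecf rose, whereas the other Siglec genes tested fell. In the list of 10 Siglec genes and the phosphatases they recruit, 3 Siglec genes and 2 phosphatase genes were tested. All 5 fell (median log2 fold change -1.62), against 31.7% called lower of all tested genes. Siglece, an inhibitory lectin of neutrophils and monocytes, fell 19.3-fold to 1.03 ± 0.380 FPKM in RUNX1-RARA cells, against 19.8 ± 1.51 FPKM in vector cells, Cd33 fell 3.24-fold to 34.0 ± 1.29 FPKM, against 110 ± 9.23 FPKM, and Siglecg fell 3.14-fold to 2.02 ± 0.465 FPKM, against 6.34 ± 0.179 FPKM. Ptpn6, the phosphatase SHP-1 that Siglec tails recruit, fell 3.14-fold to 38.5 ± 1.95 FPKM, against 121 ± 5.23 FPKM. The difference between Siglecf and these genes was read from the separate fits and not tested by itself.

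Other ribonuclease genes were lower too. The list held 25 symbols of the family and its inhibitor, which need not all be separate genes. Of these symbols 17 matched, 5 were tested and 5 fell. Of all tested genes, 31.7% were called lower. Rnase6 reached 1 FPKM only in vector libraries, so it could hardly pass the filter without differing. Rnase6 fell 14.7-fold to 0.378 ± 0.166 FPKM in RUNX1-RARA cells, against 5.55 ± 0.485 FPKM in vector cells, Rnase12 fell 5.29-fold to 0.980 ± 0.266 FPKM, against 5.18 ± 0.547 FPKM, and Rnase4 fell 3.27-fold to 3.17 ± 0.151 FPKM, against 10.4 ± 0.441 FPKM. Ang, which encodes angiogenin and overlaps Rnase4 on the same strand, fell 2.24-fold. Rnase2a and Rnase2b, the mouse genes named for the eosinophil-derived neurotoxin, were listed at 0 in RUNX1-RARA libraries and averaged 0.0397 and 0.0217 FPKM in vector libraries. Rnh1, the cytosolic inhibitor of these enzymes, was at 24.7 ± 1.22 and 28.4 ± 2.16 FPKM with the fusion and the vector (log2 fold change -0.19, limma adjusted p = 0.0216), a call lost without RUNX1-RARA replicate 2 (0.0842), empty vector replicate 2 (0.0899) or empty vector replicate 3 (0.0693).

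Further eosinophil surface and mediator genes were lower more often than higher, 15 against 5 of 22 tested. Of all tested genes, 31.7% were called lower and 46% higher. The median log2 fold change of the list was -0.94. Some of the lower genes, Alox15 among them, reached 1 FPKM only in vector libraries and could hardly pass the filter without differing. Alox15, the lipoxygenase of eosinophil and macrophage lipid mediators, stood at 0.0457 ± 0.0626 FPKM in RUNX1-RARA cells and 7.86 ± 0.559 FPKM in vector cells (log2 fold change -3.08, SE 0.0721, adjusted p = 7.90e-11 by limma). Neutrophils also express Cd24a, which fell 46.2-fold to 5.86 ± 0.762 FPKM in RUNX1-RARA cells, against 271 ± 9.50 FPKM in vector cells, and Itgam, which fell 10.4-fold to 29.2 ± 0.687 FPKM, against 304 ± 20.5 FPKM. Pirb, an inhibitory receptor, fell 15.2-fold to 5.88 ± 0.642 FPKM, against 89.2 ± 2.99 FPKM. Genes of granule packaging and release moved both ways, 5 higher and 6 lower of 13 tested (median log2 fold change 0.07). Cst7, which encodes cystatin F, rose to 183 ± 13.9 FPKM, against 105 ± 7.98 FPKM in vector cells. Ctsl, the cathepsin L gene, fell 50.8-fold to 0.797 ± 0.114 FPKM, against 40.5 ± 1.69 FPKM, Ctsc fell 2.97-fold and Rab27a, a GTPase of granule exocytosis, 1.77-fold.

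Genes within 100 kb of a member, named here by position after their values were seen, are given beside it. Slc43a3, 22.0 kb from Prg2, was at 33.3 ± 3.06 FPKM in RUNX1-RARA and 39.5 ± 1.75 FPKM in vector cells, with a log2 fold change of -0.24, and P2rx3, 4.70 kb beyond Prg3, had one of -0.32, while Prg2 and Prg3 between them had -5.20 and -2.85. Mks1, a cilium gene that lies 0.197 kb from Epx, rose to 3.54 ± 0.460 FPKM, against 1.31 ± 0.0894 FPKM (log2 fold change 0.97), where Epx fell. Around Siglecf, Nkg7, a cytotoxic granule gene 77.5 kb away, rose to 71.2 ± 11.0 FPKM, against 26.3 ± 1.60 FPKM (log2 fold change 1.39), and Siglecg, 48.7 kb away, fell. Both tested genes beside Il5ra, Trnt1 and Crbn, which overlap each other on opposite strands, were higher as well, with log2 fold changes of 0.74 and 0.51.

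Genes with the profiles closest to those of the main granule genes were sought as the smallest Euclidean distance between log2(FPKM + 1) values over the 6 libraries, a measure set mainly by the 2 group means. For Epx these were Cd38 (distance 0.435), Ifi204 (0.441) and 4930438A08Rik (0.474). Cd38, an ectoenzyme of leukocytes, was at 0.0253 ± 0.0234 FPKM with the fusion and 21.2 ± 0.909 FPKM with the vector. For Prg2 they were Ctss, the cathepsin S gene (0.471), Hp, the haptoglobin gene (0.544), and Wfdc21 (0.695). Ctss was at 4.95 ± 0.523 FPKM in RUNX1-RARA cells and 229 ± 7.31 FPKM in vector cells. None of these 6 genes is on the eosinophil lists used here.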

How the data were processed

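The authors deposited 1 table of FPKM, rounded to 3 decimals, with 1 column per library, per the file headers. The submitters' processing notes list DESeq2 1.32.0, featureCounts 2.0.1, HISAT2 2.2.1 and fastp 0.22.0 with the builds mm10 and hg38, but no roles. Annotation release, strand setting and multi-mapping rules were not given. Very abundant genes lower the FPKM of all others in a library.

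Because FPKM are not counts, limma 3.58.1 (R 4.3.3) with trended moderation was run on log2(FPKM + 1) for the 10901 genes that reached 1 FPKM in at least 3 libraries. Benjamini-Hochberg adjustment covered all of them, at a threshold of 0.05, and the script was tested on simulated data. In any list, a gene that reached 1 FPKM only in 1 group could hardly pass the filter without being higher there. Folds divide mean FPKM. Whether replicates were separate mice or cultures is not stated, so p-values measure only how these libraries vary, possibly for technical reasons. Squared differences between replicates were 3.12 to 16.6 times sampling noise at the estimated depth, so none were merged. Depth came from the steps between low FPKM and GENCODE M21 exon lengths: 87.7% to 92.3% of low values fell within 0.1 of a whole read (chance gives 20%). Even reads dominated (64.5% to 69.3%), so pairs may have been counted as 2 and read estimates are rough.

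Members and gene lists were chosen with earlier results of these data known. Every member is named, each pathway or gene family list gives up to 4 called genes with the largest change, cell type marker lists are given as counts, summed levels and defining genes, and Gata1, Cebpe, Csf2rb and Mpo were also set to be named. Csf2rb2, Il3ra, Il5, Il3, Ccl5, Rnh1, Rnase2a, Rnase2b, Lpo, Gata2 and Xbp1 were added after their values were seen. So were the genes named from the cell type marker lists. Alternatives were other pseudocounts, filters, scalings and moderation, a replicate block and leaving out each library. Identities came from global alignment in Biopython 1.88.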

Additional observations from a re-analysis of the deposited data

How the results depend on the processing

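Direction and call of the 8 tested eosinophil genes were the same in all 125 refits under the 16 alternatives; Ear1, Ear6 and Il5ra did not reach the filter of 5 FPKM. That filter left 5 called members (1 higher, 4 lower), 3 called ribonuclease relatives and 4 called eotaxin and receptor genes, since fewer genes were tested. Over all genes it left 6354 called of 8171 tested. With no filter, 8 genes of the Siglec list and 2 peroxidase relatives were called, beside 9963 of all 16289 genes tested that way. The 10 genes held 79.9 ppm of the FPKM sum in RUNX1-RARA cells and 690.5 ppm in vector cells when mitochondrially encoded genes, 24.0% and 9.60% of the sum in these groups, were left out. A pseudocount of 0.01 enlarged the log2 fold change to -7.23 for Epx, -9.70 for Ear2, -7.11 for Ear1, -7.09 for Ear6 and 3.07 for Il5ra. Leaving out 1 library moved it between -5.31 and -5.10 for Prg2, between -4.27 and -4.13 for Epx and between 0.99 and 1.07 for Il5ra. Under TMM scaling 49.8% of all calls were higher in RUNX1-RARA cells, against 59.2% as reported, and the median of all genes moved from 0.11 to 0.00 on the log2 scale; Siglecf then had 0.93 and Il5ra 0.99. With the replicate block 8 members were called, 2 higher and 6 lower, and 8230 genes in all, against 8469 without it. Deviations of libraries with the same number correlated at 0.0219, -0.375 and -0.0647 across genes, and those with different numbers at -0.307 to 0.396. With 3 libraries per group these values cannot decide whether the numbers pair the samples, which the labels do not say. Of 1349 refits of other named genes 9 lost a call and 0 reversed; beside those given for Csf2rb, Gata2 and Rnh1 these included Slc43a3 after quantile normalization (-0.18, limma adjusted p = 0.0618). The cause was not tested. At 0.0056 to 0.0187 FPKM for 1 read of a 2 kb transcript, depth limits Ear10 and the Ear genes with the fusion.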
